A study of Mus musculus with 2 samples.

Results

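The miR-29 family and the miR-148 and miR-152 family are microRNAs (miRNAs) known for repressing collagens and DNA methyltransferases, and their 6 guide strands were followed in the lungs of mice that did or did not receive monocrotaline (MCT). They were taken by name from the 1141 miRNA probes of the array: mmu-miR-29a-3p, mmu-miR-29b-3p and mmu-miR-29c-3p, and mmu-miR-148a-3p, mmu-miR-148b-3p and mmu-miR-152-3p. Each had 3 repeat spots per array, 18 spots in all, and all 6 were detected on both arrays. The untreated sample was lung of wild-type mice that received no treatment, and their age was not given in the sources used here. The MCT sample was lung of wild-type mice given monocrotaline, a plant alkaloid that injures lung vessels, for 30 days, and the labels put the age of these mice at 14 weeks. Strain, sex, dose and the number of mice per sample were not given in the sources used here. Total RNA, 2 µg per sample, was hybridised to 1 single-colour array per group, so no difference has a replicate check and none was tested. The ± gives the standard deviation (SD) over the 3 repeat spots of an array, which says nothing of the spread between animals. For a ratio, or a difference of ratios, these SDs are combined. In whole lung, fewer cells of a type and less of a miRNA per cell cannot be told apart.

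A miRNA pairs with messenger RNAs mainly through its seed, the bases from position 2 to 8, and lowers the output of messages that carry the matching site. The miR-29 seed matches sites in messages for fibrillar collagens, elastin and fibrillin, and in mice blocking miR-29 raises collagen expression. miR-29 also represses the de novo DNA methyltransferases Dnmt3a and Dnmt3b, while miR-148a, miR-148b and miR-152 are known, mostly from human cells, for repressing the maintenance enzyme DNMT1. In fibroblasts the profibrotic cytokine TGF-β lowers miR-29. Neither collagens nor methyltransferases were measured on these arrays, which carry miRNA probes only.

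The mature sequences show how little separates the members, with the seed in capitals. They are from RefSeq (GRCm38.p6), and each matched the target of its array probe base for base.
miR-29a-3p: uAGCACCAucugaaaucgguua
miR-29b-3p: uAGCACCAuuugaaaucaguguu
miR-29c-3p: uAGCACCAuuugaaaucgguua
miR-148a-3p: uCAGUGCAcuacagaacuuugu
miR-148b-3p: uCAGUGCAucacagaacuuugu
miR-152-3p: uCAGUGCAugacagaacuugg

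Counted from 1 at the 5′ end, miR-29a-3p and miR-29c-3p differ by the single substitution C10U, just past the seed. miR-29b-3p differs from miR-29a-3p by C10U, G18A, U21G and A22U and has 1 base more. It alone of the 6 holds AGUGUU, a run at its 3′ end that was linked to import into the nucleus in human cells. In the other family miR-148a-3p and miR-148b-3p differ by C9U and U10C, and miR-148b-3p and miR-152-3p by C10G and U20G. No other probe on the array shared either seed at positions 2 to 8. With 1 to 4 mismatches between members, a probe may also bind its relatives, and how far it did was not tested.

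The members come from 7 hairpins, given here in GRCm38.p6. On chromosome 6, Mir29a (chr6:31062660-31062747, minus strand) and Mir29b-1 (chr6:31063023-31063093, minus strand) lie 275 bases apart, with no other gene of the RefSeq table over them. On chromosome 1, Mir29b-2 (chr1:195037040-195037120, plus strand) and Mir29c (chr1:195037547-195037634, plus strand) lie 426 bases apart within the long non-coding gene A330023F24Rik. miR-29b-3p can therefore come from either locus. Mir148a (chr6:51269812-51269910, minus strand) lies within the bounds of the predicted gene Gm38821, Mir148b (chr15:103285125-103285221, plus strand) within Copz1 and Mir152 (chr11:96850393-96850465, plus strand) within Copz2, related genes for subunits of the COPI vesicle coat. Whether a hairpin lies in an exon or an intron was not determined from this table.

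As the scanner read them, all 6 probes were brighter on the MCT array, which was the brighter array as a whole. The empty spots there had a median of 253 against 101 on the untreated array, and the limit of detection, the 95th percentile of the empty spots, was 284 against 116. The median miRNA spot read 226 on the MCT array, below its empty spots, and 105 on the untreated array, above them. The limit was thus the stricter one on the MCT array. The 3 spots of miR-29a-3p read 18831, 19337 and 18664 in untreated lung and 23626, 23010 and 22270 in MCT-treated lung. Those of miR-29c-3p read 1536, 1662 and 1743 against 6056, 5972 and 5789. So the mean intensity of miR-29a-3p was 1.21 times as high on the MCT array and that of miR-29c-3p 3.61 times. The 3 spots of miR-29b-3p read 199.7, 242.5 and 225.0 in untreated lung and 717, 723 and 680 in MCT-treated lung, 1.91 and 2.49 times the limits of their arrays.

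In the other family the spots of miR-148a-3p read 188.1, 197.1 and 220.1 in untreated lung and 713, 775 and 720 in MCT-treated lung. Those of miR-148b-3p read 257.5, 280.8 and 255.5 against 933, 942 and 932. Both probes were dim, at 1.74 and 2.28 times the limit of the untreated array. The spots of miR-152-3p, whose gene lies in Copz2, read 1255, 1233 and 1197 against 3294, 3358 and 3310, at 10.6 and 11.7 times the limits. In every one of the 6 probes all MCT spots lay above all untreated spots, and repeat spots lay close together. On this scale that does not set the members apart. Probes that were not detected also showed it, such as miR-29a-5p with 82.6 to 97.8 against 205.4 to 210.9.

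**Figure D1:**
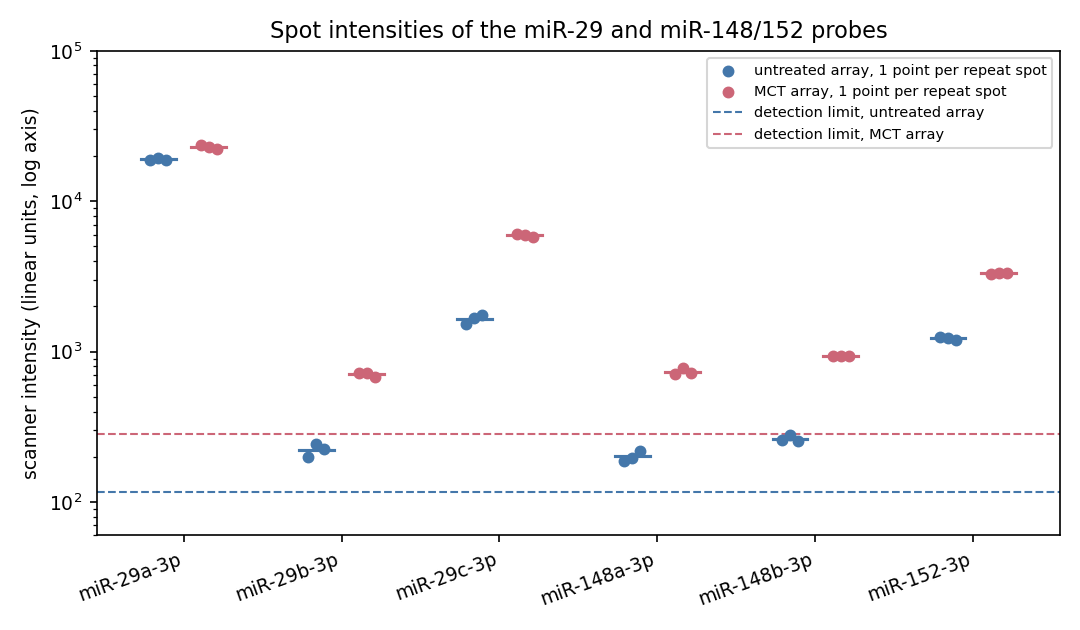
Scanner intensity of the 3 repeat spots of each member on the untreated and the MCT array, on a log axis; short lines are means and dashed lines the limits of detection, 116 and 284. All spots of the members lay above the limit of their own array, and the gap between the arrays was smallest for miR-29a-3p (1.21 times) and larger for the other 5 (2.70 to 3.65 times).

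The scanner values of the arrays cannot be compared directly, since the background differed and the excess of the MCT array depended on brightness. Without normalization the 40 miRNAs closest in level to miR-29a-3p had a median log2 ratio of 0.49, and the 40 closest to miR-29c-3p had 1.03. Levels are therefore given as log2 intensity after background correction and quantile normalization, which gives the arrays the same distribution, and the log2 ratio of MCT over untreated lung is relative to the other miRNAs. On this scale the 310 miRNAs detected on both arrays had a median ratio of 0.023, with quartiles of -0.28 and 0.32.

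On the normalized scale miR-29c-3p was higher in MCT-treated lung and miR-29a-3p slightly lower, although they share a seed and differ at 1 base. The level of miR-29c-3p was 11.20 ± 0.11 without and 11.89 ± 0.037 with MCT. Its log2 ratio of 0.69 ± 0.11, or 1.62-fold, was the highest of the 6 members, and 31 of the 310 miRNAs had a higher one. For miR-29a-3p the levels were 14.41 ± 0.020 and 14.21 ± 0.045, with a ratio of -0.20 ± 0.049, or 1.15-fold lower. Its spots in MCT-treated lung, from 14.17 to 14.26, all lay below those in untreated lung, from 14.39 to 14.43. Of the 40 miRNAs closest to it in level, 36 had a higher ratio, whereas 6 of the 40 closest to miR-29c-3p did.

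miR-29b-3p lay between miR-29a-3p and miR-29c-3p, and whether its origin from both loci bears on this was not tested. Its level was 8.26 ± 0.17 without MCT and 8.53 ± 0.043 with it, and its ratio was 0.27 ± 0.18. The nearest spots of the arrays were 8.42 and 8.49, so the gap between the arrays was smaller than the range of the untreated spots. Among 14 miRNAs of like GC content (within 5 percentage points) and level (within 1 log2 unit), the median ratio was 0.69 and 8 were higher than miR-29b-3p. For miR-29c-3p 2 of 17 such miRNAs were higher, and for miR-29a-3p 16 of 16. In the authors' values the ratio of miR-29b-3p was 0.60, nearer to miR-29c-3p at 0.84 than to miR-29a-3p at -0.26.

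Within the miR-29 family the ratio of miR-29c-3p exceeded that of miR-29a-3p by 0.89 ± 0.12, that of miR-29b-3p exceeded miR-29a-3p by 0.47 ± 0.18, and that of miR-29c-3p exceeded miR-29b-3p by 0.42 ± 0.21. A shift common to all probes cancels in these differences, but a shift that depends on brightness does not. The difference between miR-29c-3p and miR-29a-3p was 1.57 without an intensity-dependent step, and lay between 0.84 and 1.10 with quantile normalization, cyclic loess or the authors' own values. It was positive under all 17 alternatives, which are not all separate checks. A common factor per array cancels in it, and the detection settings leave it unchanged. Dim spots around the spots of miR-29a-3p and miR-29c-3p read 93.9 and 93.9 on the untreated array and 203 and 199.9 on the MCT array. These readings are a description and say nothing of a shift that depends on brightness.

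miR-148a-3p, miR-148b-3p and miR-152-3p lay close together, each modestly higher in MCT-treated lung. For miR-148a-3p the level was 8.06 ± 0.16 without and 8.60 ± 0.091 with MCT, giving a log2 ratio of 0.54 ± 0.18 or 1.46-fold. miR-148b-3p had 8.59 ± 0.072 against 9.01 ± 0.011, a ratio of 0.42 ± 0.072 or 1.34-fold. miR-152-3p had 10.72 ± 0.037 against 11.12 ± 0.016, a ratio of 0.40 ± 0.040 or 1.32-fold. For each of the 3, the lowest MCT spot lay above the highest untreated spot. Of the 310 miRNAs detected on both arrays, 47 had a higher ratio than miR-148a-3p, 60 than miR-148b-3p and 64 than miR-152-3p. Among miRNAs of like GC content and level, 7 of 29 were higher than miR-148a-3p, 11 of 25 than miR-148b-3p and 10 of 25 than miR-152-3p. The median ratios of these matched miRNAs were 0.12, 0.36 and 0.14.

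Differences between these 3 ratios were small beside the spread of the spots: 0.12 ± 0.20 for miR-148a-3p over miR-148b-3p, 0.14 ± 0.19 for miR-148a-3p over miR-152-3p and 0.022 ± 0.083 for miR-148b-3p over miR-152-3p. Such values do not show that the 3 act alike, as the spots carry no error between animals. In the authors' processed values miR-152-3p stood further off, with intensities of 1783 and 1967, 1.10-fold, against 1.97-fold for miR-148a-3p and 1.74-fold for miR-148b-3p. There the log2 ratio of miR-148a-3p exceeded that of miR-152-3p by 0.67, against 0.14 here.

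**Figure D2:**
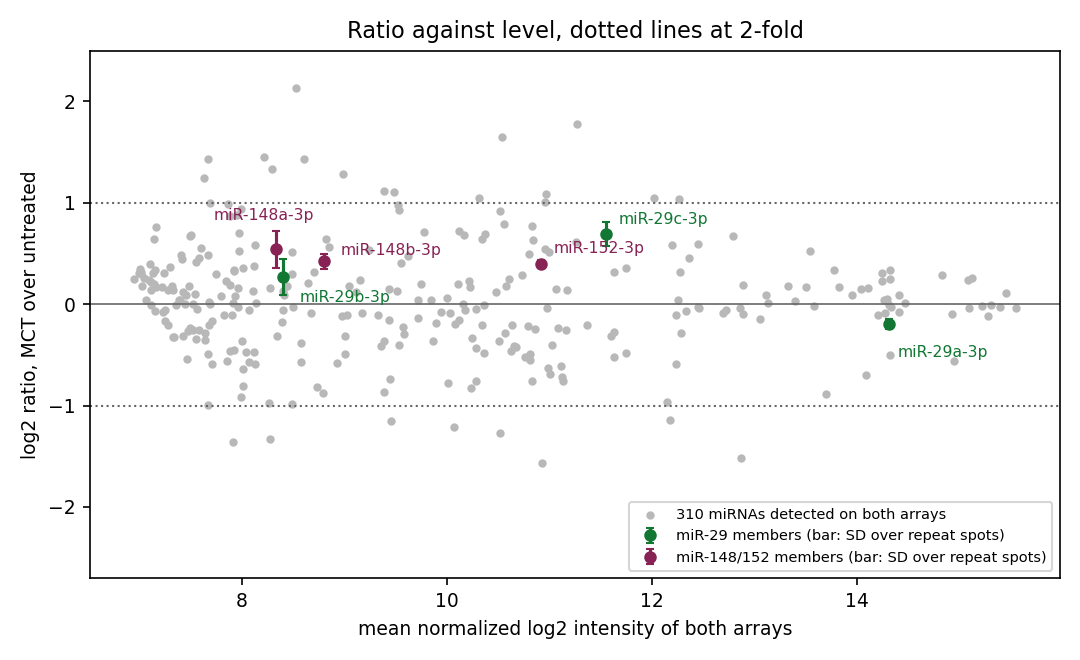
Log2 ratio of MCT over untreated lung against the mean normalized log2 intensity of both arrays, for the 310 miRNAs detected on both (grey) and the members (coloured, bars are SD over repeat spots). No member reached the dotted lines at 2-fold, miR-29c-3p was the highest of the members at 0.69, and miR-29a-3p, at -0.20, was the only one below 0.

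None of the 6 members was at least 2-fold higher or lower. By the same rule, which also asks that the spots of the arrays do not overlap, 4.16% of the 409 miRNAs detected on at least 1 array were higher and 2.2% lower. At 1.5-fold 1 member was higher, miR-29c-3p, and 0 were lower, against 11.2% and 10.8% of the 409. The ratio was above 0 for 5 of the 6 members and for 162 of the 310 miRNAs detected on both arrays (52.3%). The median of the 6 was 0.41 beside 0.023 for the 310. Spots of the arrays that did not overlap, as seen in all 6, were common, at 69.7% of the 409 miRNAs.

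The brightness ranks within each array are given as a description, since quantile normalization is built on ranks and they are no separate check of the ratios. Rank 1 is the brightest of the 1141 probes, and a rank describes a probe's signal and not the number of molecules. miR-29a-3p stood at rank 17 in untreated and 25 in MCT-treated lung. miR-29c-3p stood at 82 and 65, and miR-29b-3p at 211 and 190. miR-148a-3p moved from 222 to 189, miR-148b-3p from 188 to 174 and miR-152-3p from 98 to 84.

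The sign of a ratio depended on the scaling for miR-29a-3p and miR-152-3p. The ratio of miR-29a-3p was 0.27 without normalization, 0.052 scaled by the 5S ribosomal RNA probes and 0.054 with the arrays centred on the median, and below 0 under the other 14 alternatives. That of miR-152-3p was -0.020 with the arrays centred on the miRNAs detected on both, and above 0 under the others. These scalings moved the median of all detected miRNAs by 0.75, 0.53, 0.53 and -0.67. Set against that median, miR-29a-3p lay below it and the other 5 members above it under all 17 alternatives. These are not all separate checks. Settings with no normalization or a common factor per array differ only by a shift, which cancels in this comparison. The detection settings reuse the reported ratios.

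**Figure D3:**
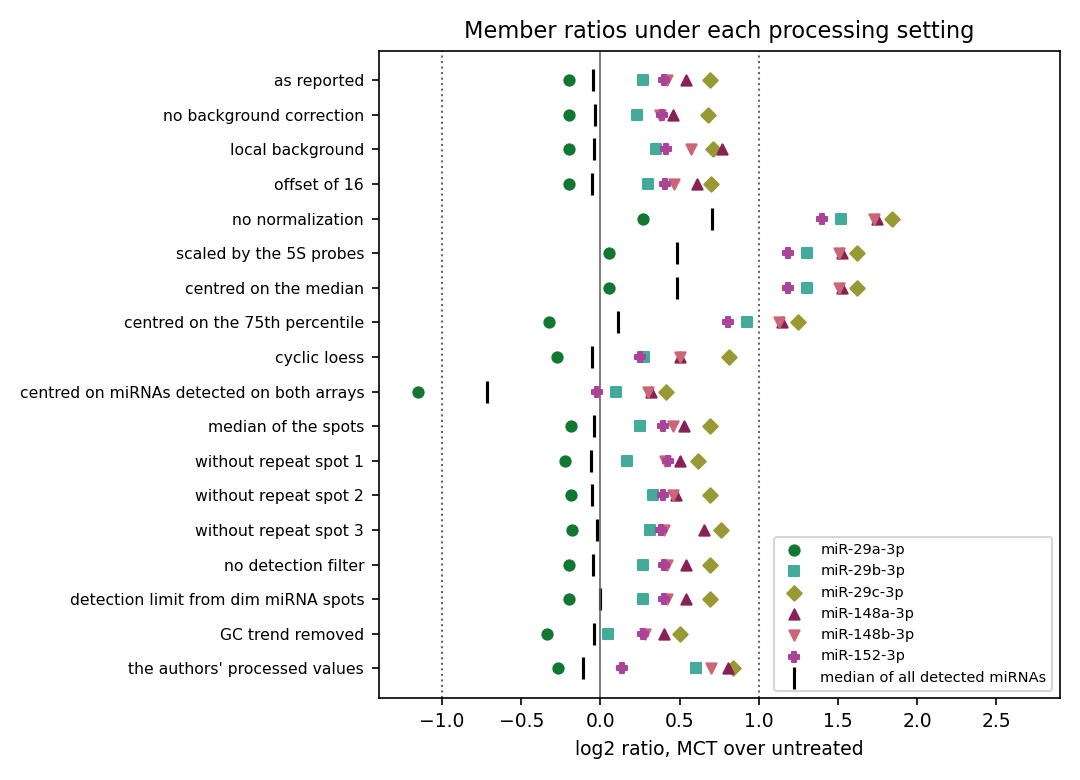
Log2 ratio of each member, MCT over untreated lung, as reported and under 17 alternatives, with a black bar for the median of all detected miRNAs. miR-29a-3p lies left of the black bar and the other 5 members right of it in each row, while the whole set moves with the scaling.

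Of the 7 opposite (passenger) arms on the array, miR-29b-2-5p and miR-29c-5p, both of the chromosome 1 hairpins, were detected and the other 5 were not. These are different probes read close to background, so detection of an arm cannot be set against non-detection of another as a difference between loci. The hairpins of both miR-29b genes are shown because they give the same guide strand but different passenger arms (both arms in capitals, RefSeq GRCm38.p6).
Mir29b-1: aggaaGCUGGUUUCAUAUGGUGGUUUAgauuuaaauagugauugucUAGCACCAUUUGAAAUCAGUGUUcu
Mir29b-2: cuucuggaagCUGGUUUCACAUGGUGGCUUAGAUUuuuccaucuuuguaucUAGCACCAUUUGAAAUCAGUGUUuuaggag

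The spots of miR-29b-2-5p read 157.3, 181.3 and 161.7 in untreated lung and 482, 458 and 449.6 in MCT-treated lung, all above the limits. Its normalized ratio was 0.29 ± 0.20. Those of miR-29c-5p read 135.9, 145.4 and 143.1 against 407, 386 and 380.1, with a ratio of 0.45 ± 0.097. Both arms thus lay on the same side as miR-29c-3p, close to background at 1.22 to 1.63 times the limits. With the arrays centred on the miRNAs detected on both, their ratios were -0.22 and -0.30, beside a median of -0.72 for all detected miRNAs. On chromosome 6 the spots of miR-29b-1-5p read 88.1, 107.4 and 93.7 against 207.7, 213.9 and 214.4, and those of miR-29a-5p from 82.6 to 97.8 against 205.4 to 210.9. None of these spots exceeded the limits of 116 and 284. The passenger arms of miR-148a, miR-148b and miR-152 were not detected either, with 92.0 to 103.7 in untreated and 209.3 to 231.4 in MCT-treated lung.

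**Figure D4:**
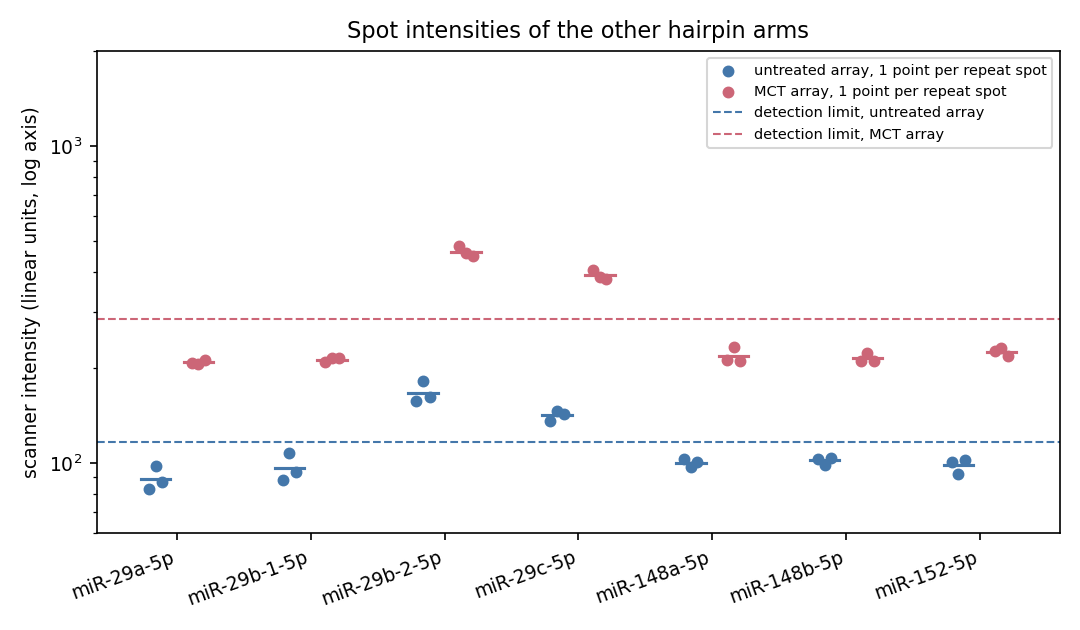
Scanner intensity of the 3 repeat spots of the 7 opposite arms on the untreated and the MCT array, on a log axis, with dashed lines at the limits of detection, 116 and 284. The spots of miR-29b-2-5p and miR-29c-5p lie above the limit of their array and those of the other 5 arms below it.

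Base composition moved with the ratio on these arrays, and its part in the members' ratios was examined by taking out its trend. The GC content of the mature strands was 34.8% for miR-29b-3p, 36.4% for miR-29c-3p, 40.9% for miR-29a-3p, miR-148a-3p and miR-148b-3p, and 47.6% for miR-152-3p. Without this trend, every member's ratio was lower: 0.50 for miR-29c-3p, 0.40 for miR-148a-3p, 0.28 for miR-148b-3p, 0.27 for miR-152-3p, 0.050 for miR-29b-3p and -0.34 for miR-29a-3p. The difference between miR-29c-3p and miR-29a-3p was then 0.84.

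By the distance between pairs of normalized levels, over 2 arrays only, the miRNA most like miR-29a-3p among 304 others detected on both was miR-5112 (ratio -0.084 ± 0.040). For miR-29b-3p it was miR-322-3p (0.18 ± 0.11), and for miR-29c-3p it was miR-92a-3p (0.32 ± 0.036), which was also the most distant of these matches. For miR-148a-3p it was miR-28-5p (0.51 ± 0.16), for miR-148b-3p miR-22-5p (0.56 ± 0.17) and for miR-152-3p miR-31-5p (0.39 ± 0.040).

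Of 18 other miRNAs tied to collagen and TGF-β signalling, 17 were detected, all on both arrays. Of these, 0 were 2-fold higher or lower, against 4.16% higher and 2.2% lower of the 409 miRNAs detected on at least 1 array. A ratio above 0 was seen in 14, against 52.3% of the 310 miRNAs detected on both arrays. The median of the list was 0.21, beside 0.023 for the 310. With the GC trend removed the median of the list was 0.040. With the arrays centred on the miRNAs detected on both, this median was -0.56, beside -0.72 for all detected miRNAs. The highest was miR-199a-5p, which in human lung fibroblasts promotes the response to TGF-β, at 0.70 ± 0.086. The lowest was miR-214-3p, from the same transcript as a miR-199a hairpin, at -0.28 ± 0.048. Of 16 miRNAs linked to DNA methylation and chromatin enzymes, 11 were detected. Among them 1 was at least 2-fold higher and 0 lower, against the same 4.16% and 2.2%. The median of this list was 0.0066. This median was -0.14 with the GC trend removed, and 0.76 with the arrays centred on their medians, where that of all detected miRNAs was 0.49. The higher one was miR-342-3p, which represses DNMT1 in human cells, at 1.05 ± 0.11, and the lowest was miR-126-3p, a miRNA of endothelial cells, at -0.12 ± 0.12.

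Markers of the cell types that could carry these families were read beside them, and their part in the ratios was not tested. Of 6 lung miRNAs 5 were detected, with a median ratio of 0.051. Of these 5 the epithelial miR-200b-3p was highest at 0.46 ± 0.056, followed by miR-34b-5p of ciliated cells at 0.35 ± 0.18. The related epithelial miR-200c-3p had -0.039 ± 0.060, miR-30a-5p 0.051 ± 0.060, and miR-126-3p was lowest at -0.12 ± 0.12. miR-449a-5p of ciliated cells was not detected, and its ratio from spots below the limits was 0.48 ± 0.15. All 4 mesenchymal and smooth muscle miRNAs were detected, 3 with ratios above 0, from miR-214-3p at -0.28 ± 0.048 to miR-143-3p at 0.33 ± 0.41, and their summed normalized linear level was 54021 in untreated and 63300 in MCT-treated lung. Of 5 leukocyte miRNAs 3 were detected, not miR-142-3p or miR-142-5p. The ratios of these 2, not detected on either array, were 0.45 ± 0.29 and 0.81 ± 0.44. On the MCT array miR-142-5p read 270 on average, just under the limit of 284. The sums over all 5 were 13107 and 13657, with miR-150-5p, the brightest of them, at a ratio of 0.17 ± 0.077. Lower was miR-223-3p of myeloid cells at -1.21 ± 0.21, or -0.25 with the arrays centred on their medians. miR-155-5p was the highest of those detected, at 0.21 ± 0.095. Of the erythroid pair miR-451 was detected, at -0.038 ± 0.035, and miR-144-3p was not. Of 7 miRNAs of other tissues, miR-375-3p was detected on both arrays at 0.080 ± 0.055, and 5, of brain, heart and pancreas, on neither. The liver miRNA miR-122-5p was detected in untreated lung only, at a mean of 118 beside the limit of 116. In MCT-treated lung it read 209 beside 284. So close to the limit, this cannot be read as presence in only 1 of the samples.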

How the data were processed

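The scanner intensity of each spot, the median over its pixels on a linear scale, was used as deposited, per the file headers; no background had been subtracted, since empty spots read well above 0. Per the labels' protocols, RNA was tailed, tagged and stained with Cy3 after hybridisation at a service provider. The authors' processed intensity per probe, from the deposited series table (1189 probes, medians of 7.55 and 14.4), served as an alternative. From its values it is linear with the background removed; its scaling and centring were not given in the sources used here. Spearman's rho against the scanner values was 0.976 and 0.964.

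Intensities were corrected with normexp (offset 50) in limma 3.58.1 under R 4.3.3 over all 3968 spots, without the local background. Empty, 5S and spike spots were left out, log2 values were quantile normalized, and the 3 spots averaged. A miRNA was detected with at least 2 spots over the 95th percentile of the 257 empty spots: 403 (35.3%) in untreated and 316 (27.7%) in MCT-treated lung, 310 in both and 409 in either. A call needed 2-fold and spots that did not overlap. SDs of the arrays were added in quadrature for a ratio, and the SDs of both ratios for a difference of ratios. This treats the spots as independent, which was not tested. The offset shrinks ratios of dim probes. The steps were tested on simulated arrays with known changes. These held no difference in signal between the arrays that depends on brightness. Recovery was required only of large changes in bright probes, so small changes in dim probes such as miR-29b-3p were not covered.

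The alternatives were 17 other ways of background correction, scaling, spot summary, detection and GC correction, and for the calls also a 1.5-fold threshold and overlapping spots. Centring on the miRNAs detected on both arrays was chosen after seeing the data. For 5S scaling the mean of the 5 probes replaced the median over spots after both were seen. Named were the members, their other arms, probes of the same seed, the nearest miRNA in level, and the highest, lowest and 2-fold members of each list; other members of marker lists were named after their values were seen. Members, lists and tests were chosen with earlier results of these data known. Python 3.11.15 with pandas 2.3.3 and statsmodels 0.14.6 did the rest. Precision is limited by having 1 array in each group.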

Additional observations from a re-analysis of the deposited data

How the results depend on the processing

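The median ratio of the miR-29 members, 0.27, was 1.52 without normalization, 1.30 scaled by the 5S probes, 1.30 centred on the median, 0.93 centred on the 75th percentile, 0.050 with the GC trend removed, 0.60 in the authors' values and 0.0995 centred on the miRNAs detected on both arrays. That of the miR-148 and miR-152 members, 0.42, was 1.72, 1.505, 1.51, 1.13, 0.28 and 0.70 under the first 6 of these settings, 0.30 under the last, 0.57 with a local background and 0.50 with cyclic loess. Members at least 2-fold higher, 0 here, were 5 without normalization, 5 scaled by the 5S probes, 5 centred on the median, 3 centred on the 75th percentile, and 1 at a threshold of 1.5-fold. Members at least 2-fold lower, 0 here, were 1 (miR-29a-3p, at -1.15) centred on the miRNAs detected on both arrays. The ratio of miR-29c-3p exceeded that of miR-29a-3p by 0.89 here, by 1.57 with no normalization and in all 4 settings that scale or centre an array by 1 factor, by 1.09 with cyclic loess and by 1.10 in the authors' values. That of miR-148a-3p exceeded miR-152-3p by 0.14 here, by 0.34 with no normalization and in the same 4 settings, by 0.35 with a local background and by 0.67 in the authors' values. The 1-factor settings keep the difference in brightness dependence between the arrays, and the cause of the other moves was not tested. All 4 values moved by less than the SD of the spots when 1 repeat spot was left out. No paired analysis was possible because each group held 1 sample. The dim members miR-29b-3p and miR-148a-3p had the widest spot SDs of the ratio, 0.18 each. miR-148b-3p, also dim, had 0.072, below 0.11 for the brighter miR-29c-3p.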

Other observations

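The miR-130 and miR-301 probes carry the seed of miR-148 and miR-152 shifted by 1 base: their bases 2 to 7 equal bases 3 to 8 of that family. Of the 5 such probes miR-130a-3p and miR-130b-3p were detected on both arrays, and miR-301a-3p, miR-301b-3p and miR-721 on neither. Unlike the 3 members of the miR-148 and miR-152 family, with ratios from 0.40 to 0.54, miR-130a-3p had -0.040 ± 0.070 and miR-130b-3p -0.17 ± 0.17. With the arrays centred on the median these were 0.87 and 0.86, against 1.18 to 1.53 for the members. For the miR-29 seed the probes shifted in this way, miR-767 and miR-770-5p, were detected on neither array.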
